A study of Mus musculus with 4 samples.

Results

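Lipid-handling macrophage genes were followed as 10 of the 31053 genes measured by single-cell RNA sequencing of mouse bone tissue, chosen by name: Apoe, Abca1, Cd36, Msr1, Trem2, Gpnmb, Lpl, Fabp4, Fabp5 and Plin2. All 10 had UMIs in each of the 4 libraries, where a UMI (unique molecular identifier) stands for 1 captured transcript molecule. Macrophages take up lipoproteins and the lipid of dying cells through scavenger receptors, digest them in lysosomes, bind the freed fatty acids in the cytosol, store the surplus in droplets and return cholesterol to lipoproteins. These genes are known from foam cells of arteries and from macrophages of fat, liver and brain, and macrophages of bone clear dying neutrophils and the nuclei of red cell precursors. Several of the genes also belong to fat cells, cartilage, capillaries or osteoclasts, so that a name alone does not assign a transcript to a macrophage.

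The 4 libraries came from bones of wild-type C57BL/6J mice, 1 library per mouse. The 2 Ctrl mice had no treatment, and the 2 HLU mice had been hung by the tail for 28 days, so that the hind limbs bore no load (hindlimb unloading). Sources differ on their age: the study's methods give 8 weeks for the mice as obtained, before unloading, and the series text gives postnatal day 28. Marrow had been flushed out of the tibiae and femurs before the bone was digested with enzymes, so the cells are those that stayed with the bone.

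Of 10000, 10000, 10000 and 10003 barcodes, 7340 and 7635 cells of the Ctrl libraries and 7757 and 9485 cells of the HLU libraries held 1000 to 40000 UMIs with at most 10% from mitochondrial genes, 32217 in all. Median depth ran from 3799 UMIs per cell in HLU replicate 1 to 6294.5 in Ctrl replicate 1, and each pair of libraries shared 13 to 21 barcodes. Cells were sorted into gates by marker genes, none of them a member, and the name of a gate stands for its markers. Classical monocytes (raised for genes such as Ly6c2, Ccr2 and Vcan) numbered 123 and 164 in Ctrl replicates 1 and 2 and 273 and 708 in HLU replicates 1 and 2, the order in which values of the libraries are given throughout. Inflammatory monocytes (Serpinb2, Ptgs2, Il1a and others) numbered 59, 87, 115 and 673, and monocyte-derived cells of the gate named for Arg1 and Inhba 89, 156, 50 and 10. This gate needed at least 2 raised markers of Arg1, Inhba, Nos2, Fn1, Egln3 and Mmp12. A cell of it need not have held Arg1 or Inhba, and "cells with Arg1 and Inhba" is the name of the gate only. C1q macrophages (at least 3 markers, with 1 or more of C1qa, C1qb and C1qc) numbered 7, 14, 1 and 54, osteoclast-like cells 2, 10, 4 and 4, and stromal cells (Col1a1, Dcn, Pdgfra, Cxcl12 and others) 649, 476, 12 and 20. Summed monocytes of the 2 HLU libraries were less alike than those of the Ctrl libraries (a correlation across 7492 genes of 0.870 against 0.972), and HLU replicate 2 lay farther from the Ctrl libraries (0.750 and 0.773) than HLU replicate 1 (0.792 and 0.820). Levels are UMI counts of a gene per 1000000 UMIs (CPM) summed over a gate in a library, and are compared for the same gene only.

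Both Fabp genes lie on chromosome 3 of mm10, Fabp4 at chr3:10204088-10208576 (minus strand) and Fabp5 at chr3:10012548-10016607 (plus strand). Abca1 (chr4:53030787-53159895) and Plin2 (chr4:86648386-86670060) lie on the minus strand, as do Cd36 (chr5:17781690-17888801), Apoe (chr7:19696109-19699188) and Msr1 (chr8:39581685-39642673). The plus strand holds Gpnmb (chr6:49036546-49070929), Lpl (chr8:68880491-68907448) and Trem2 (chr17:48346401-48354147). All 10 are protein-coding genes. The bases before the RefSeq start (GRCm38.p6) were at hand for 6 of the 10, Apoe, Abca1, Cd36, Trem2, Gpnmb and Plin2. Shown are the 200 bases before the start of Apoe (chr7:19699189-19699388, minus strand), Abca1 (chr4:53159896-53160095, minus strand) and Cd36 (chr5:17835897-17836096, minus strand), 3 members that were higher together in C1q macrophages, each read 5′ to 3′ along its gene, with searched motifs in capitals.
Apoe: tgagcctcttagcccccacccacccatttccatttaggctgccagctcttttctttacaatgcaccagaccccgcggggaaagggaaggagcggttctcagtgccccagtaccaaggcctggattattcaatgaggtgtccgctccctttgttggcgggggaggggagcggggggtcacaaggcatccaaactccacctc
Abca1: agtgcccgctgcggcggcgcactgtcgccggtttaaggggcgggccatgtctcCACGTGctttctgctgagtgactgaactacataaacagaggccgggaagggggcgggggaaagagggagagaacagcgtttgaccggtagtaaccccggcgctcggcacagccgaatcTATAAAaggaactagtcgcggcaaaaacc
Cd36: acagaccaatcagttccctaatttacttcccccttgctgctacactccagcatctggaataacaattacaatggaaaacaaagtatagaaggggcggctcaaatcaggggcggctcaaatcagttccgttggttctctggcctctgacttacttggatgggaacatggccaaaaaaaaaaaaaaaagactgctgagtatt
The motifs searched were AGGTCA, the hexamer read by nuclear receptors, and CACGTG, the E-box of the MiT factors, each on both strands, and TATAAA on the strand of the gene. CACGTG lay 147 to 142 bases and TATAAA 29 to 24 bases before the start of Abca1. The Apoe and Cd36 windows held none of these letters, and Trem2 held the hexamer as TGACCT 68 to 63 bases before its start. Among 32851 RefSeq promoters, 11.4% held the hexamer, 5.26% CACGTG and 6.27% TATAAA in the same window. The RefSeq start of Cd36 lies 52905 bases inside the gene as annotated by GENCODE, so its window is that of an inner start.

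Members differed in the share of their UMIs that lay in cells of the monocyte and macrophage series. Such a share follows the number of cells in a gate, 14385 neutrophils against 76 C1q macrophages, and is not a level. Monocyte, C1q macrophage and osteoclast-like gates together held 91.3% of the 8302 Msr1 UMIs, 64.3% of the 3927 Cd36 UMIs, 58.0% of the 690 Trem2 UMIs and 57.6% of the 11300 Gpnmb UMIs. For Fabp5 the share was 45.6% of 16934 UMIs, for Lpl 43.8% of 3324 and for Abca1 32.5% of 5258. It was 21.1% of 135675 UMIs for Plin2, 16.1% of 27251 for Apoe and 5.31% of 8155 for Fabp4. For these 6 members most UMIs lay outside those gates, part of them in cells of no gate, which held 37.7% of the Apoe, 34.2% of the Fabp4 and 31.5% of the Lpl UMIs.

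**Figure D1:**
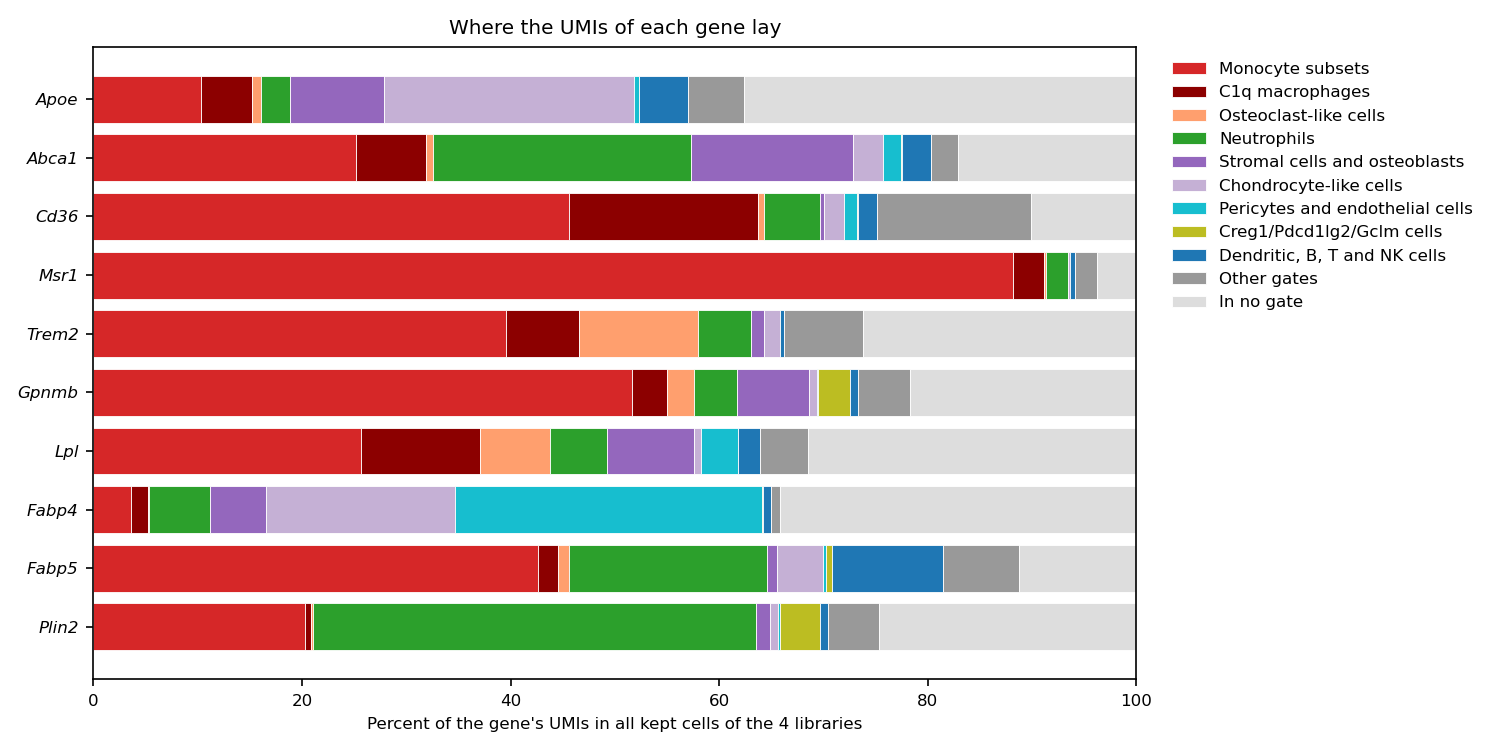
For each member, the bar splits all its UMIs in kept cells by gate, in percent. Msr1 lay almost wholly in monocytes, whereas most Fabp4, Apoe and Plin2 UMIs lay outside the monocyte, macrophage and osteoclast-like gates.

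Apoe encodes apolipoprotein E, which carries cholesterol out of cells on lipoprotein particles, and Abca1 encodes the pump that loads cholesterol onto such particles. Cells gated as chondrocyte-like held 24.0% of the Apoe UMIs. In C1q macrophages Apoe stood at 697, 1741, 8270 and 2023 CPM, the value of HLU replicate 1 coming from 1 cell. Over the libraries with at least 10 gated cells, C1q macrophages were highest for Apoe (1882 ± 200 CPM, SD, n = 2), and their range did not overlap that of basophils and mast cells, next in order (587 ± 320, SD, n = 4). Basophils, stromal cells (411 ± 353, SD, n = 4) and chondrocyte-like cells (319 ± 77, SD, n = 4) overlapped with their neighbours in that order. Abca1 shared the first place but not the order, with C1q macrophages (460 ± 292 CPM, SD, n = 2) apart from stromal cells (99.3 ± 78.7, SD, n = 4), and stromal cells overlapping with inflammatory monocytes (98.3 ± 28.5, SD, n = 4). Basophils and mast cells and chondrocyte-like cells were low for Abca1, at means of 4.69 and 6.13 CPM.

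Cd36 and Msr1 encode scavenger receptors that take up modified lipoproteins, Cd36 also long-chain fatty acids. Cd36 was highest in C1q macrophages at 3190, 1803, 856 and 122 CPM, a range that overlapped that of inflammatory monocytes at 307, 372, 184 and 32.7 CPM. HLU replicate 2 was the lowest library for Cd36 in both gates. Next in order came megakaryocytes (135 ± 197 CPM, SD, n = 4) and then erythroid cells, which are known to carry Cd36 (118 ± 71.6 CPM, SD, n = 3). Msr1 was nearly confined to the monocyte series: 182, 259, 211 and 381 CPM in inflammatory monocytes against 3 UMIs in all 1157 stromal cells together.

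Trem2 encodes a receptor for lipids and lipoproteins that signals through the adaptor Tyrobp, and Gpnmb encodes a transmembrane glycoprotein of lysosomes that rises in lipid-laden macrophages. Trem2 was the sparsest member, with UMIs in 1.10% of the 32217 cells, and 57 cells held 50% of its UMIs. Osteoclast-like cells, 20 in all, held 11.4% of the Trem2 UMIs. Its levels there were 153, 224, 296 and 87.3 CPM, with exact Poisson intervals of 56.3 to 334 and 39.9 to 166 CPM for the first and the last, which cover counting error only. Gpnmb stood at 153, 455, 805 and 1339 CPM in osteoclast-like cells and at 169, 238, 3494 and 639 CPM in C1q macrophages, where HLU replicate 1 is again 1 cell. Inflammatory monocytes held 175, 331, 102 and 368 CPM of Gpnmb, a range that spanned both groups.

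Lpl encodes lipoprotein lipase, which frees fatty acids from circulating lipoproteins, and macrophages, fat cells and muscle make it. Its level in C1q macrophages was set by 1 library: 10.6, 46.6, 0 and 901 CPM, the 0 being 0 UMIs in 1 cell, which allows up to 214 CPM. In osteoclast-like cells Lpl stood at 25.6, 530, 651 and 728 CPM. Cells with much Lpl were few in these libraries, since 64 of the 717 cells with an Lpl UMI held 50% of its UMIs.

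Fabp4 and Fabp5 encode cytosolic carriers of fatty acids, Fabp4 best known from fat cells and capillary endothelium. Smooth muscle cells and pericytes, with 48, 30, 2 and 9 cells, stood at 2224, 5743, 5342 and 594 CPM of Fabp4. Over the libraries with at least 10 gated cells they ranked first (3984 ± 2488 CPM, SD, n = 2), and endothelial cells second (540 ± 350 CPM, SD, n = 3). C1q macrophages came next (227 ± 134, SD, n = 2), and their range overlapped that of endothelial cells. Fabp5 was highest in dendritic cells at 492, 446, 738 and 1284 CPM, and megakaryocytes, C1q macrophages (357 ± 81.8, SD, n = 2) and classical monocytes (254 ± 169, SD, n = 4) overlapped with one another in that order.

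Plin2 encodes perilipin 2, the coat protein of lipid droplets in most cells outside fat. It was the most widespread member, with UMIs in 66.8% of the 32217 cells, and neutrophils held 42.5% of its UMIs. Inflammatory monocytes had 1628, 1849, 1630 and 726 CPM, classical monocytes 891, 1152, 1283 and 665, and neutrophils 1223, 872, 925 and 300. HLU replicate 2 was the lowest library in all 3 gates.

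**Figure D2:**
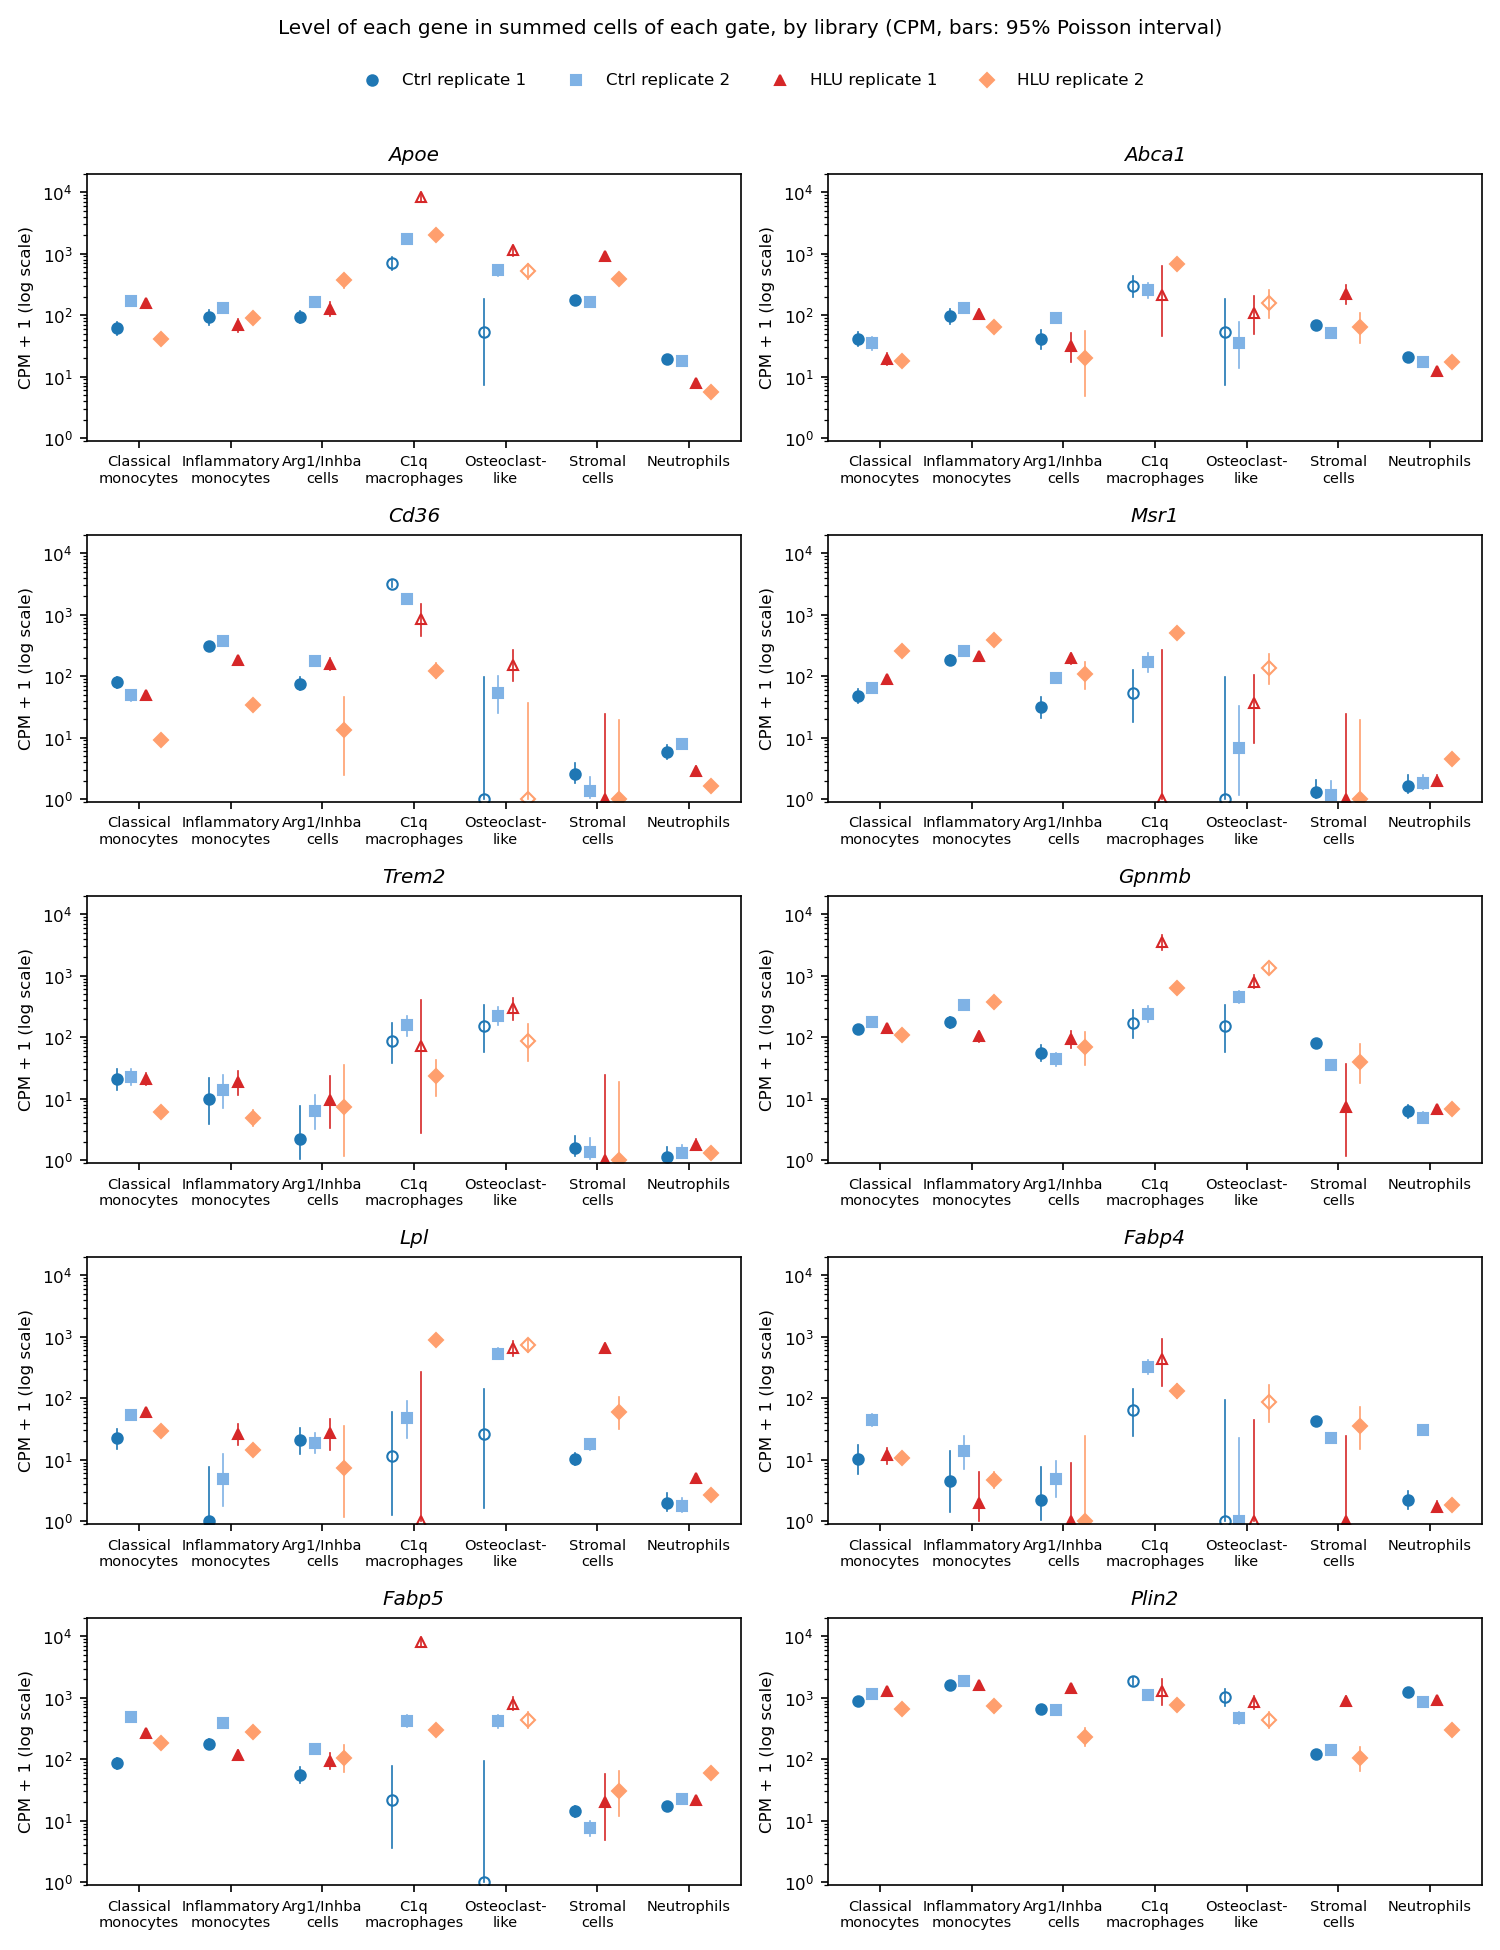
Each panel shows 1 member as CPM + 1 on a log scale (vertical axis) in each gate (horizontal axis), 1 point per library with its exact Poisson interval, filled for at least 10 gated cells and open for fewer. C1q macrophages lie at the top for Apoe and Abca1, and Msr1 falls to near 0 in stromal cells and neutrophils.

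Cell by cell, C1q macrophages carried more of the members at once than classical monocytes. A cell of this gate held UMIs of a median of 6 of the 10 members, and 77.6% of the 76 cells held at least 5, although their median depth of 7012.5 UMIs was below the 13059 UMIs of classical monocytes. All shares of cells here are pooled over the libraries. HLU replicate 2 gave 54 of the 76 C1q macrophages and 708 of the 1268 classical monocytes. Osteoclast-like cells came close, with a median of 5.5 members and 70.0% of the 20 cells with at least 5, at a median depth of 21248.5 UMIs. Classical monocytes held a median of 3 members, and T and NK cells a median of 0 at 3151 UMIs. Apoe was seen in 81.6% of C1q macrophages, 23.9% of classical monocytes and 3.71% of T and NK cells, and in 64.0%, 5.99% and 1.24% once each cell was thinned to 1000 UMIs. For Abca1 these shares were 82.9%, 15.5% and 2.41%, and 40.7%, 2.66% and 0.721% after thinning. For Cd36 they were 56.6%, 10.2% and 0.557%, and 30.5%, 2.58% and 0.177% after thinning. Trem2 was seen in 26.3% of C1q macrophages, 10.4% of classical monocytes and 0.186% of T and NK cells, and in 5.60%, 0.850% and 0.0106% after thinning.

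C1q macrophages had more Apoe, Abca1, Cd36 and Fabp4 than classical monocytes of the same mouse: the lipoprotein, the cholesterol pump, a fatty acid receptor and a fatty acid carrier. In 2 libraries, Ctrl replicate 2 and HLU replicate 2, both gates held at least 10 cells, and their UMI sums were tested by edgeR's quasi-likelihood test with the library as a block, p-values adjusted by Benjamini-Hochberg over 8111 genes. Of the 10 members, all tested, 4 were higher and 0 lower, where 0.863% of all genes tested were higher. They were Cd36 (log2 fold change 4.47 ± 0.47 SE, adjusted p = 0.00309), Fabp4 (3.22 ± 0.41, adjusted p = 0.00867), Apoe (4.43 ± 0.60, adjusted p = 0.0113) and Abca1 (4.07 ± 0.62, adjusted p = 0.0193). In both libraries each of these stood higher in C1q macrophages than in classical monocytes: Apoe at 1741 against 166 CPM and at 2023 against 39.9 CPM, Abca1 at 254 against 33.6 and at 666 against 16.9. Cd36 stood at 1803 against 48.3 CPM and at 122 against 8.25 CPM, and Fabp4 at 321 against 43.2 and at 132 against 9.75. Cd36 reached the level of the filter on low counts in both C1q sums and in 1 of the 2 classical sums. It thus entered the test through the gate where it is high and adds nothing to the count of 4. The other 3 reached that level in both gates. The promoters of 3 of the 4 are those printed above.

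The other 6 members did not pass the test by edgeR. Trem2 differed by 2.42 ± 0.51 SE on the log2 scale (adjusted p = 0.0716 by edgeR), with 155 against 21.4 CPM and 22.0 against 5.09 CPM. It passed in 4 of 5 alternatives, with DESeq2 (adjusted p = 0.0364), without the filter on low counts (0.00229 by edgeR), without putative doublets (0.0322) and with little haemoglobin (0.00957). Like Cd36, Trem2 reached the level of the filter in both C1q sums and in 1 of the 2 classical sums. It thus entered the test through the gate where it is high, and its passes are no support. Lpl (2.70 ± 1.17) rested on HLU replicate 2, with 46.6 against 52.9 CPM in the Ctrl and 901 against 28.1 CPM in the HLU library. It passed without the filter (adjusted p = 1.99e-04 by edgeR). Gpnmb (1.44), Msr1 (1.06), Fabp5 (0.13) and Plin2 (-0.01) had smaller log2 fold changes. The median over the 10 members was 2.56 on the log2 scale, against -0.05 over all genes tested. It includes Cd36 and Trem2, which entered the test through the gate where they are high, and Lpl, which rested on 1 library. The median thus supports nothing. With 4 sums the fit had 1 residual degree of freedom, and without the library block 0 members and 0 genes were called. Erythroid markers differed between these sums of C1q macrophages, with a summed level of 10.4 CPM (2 of 5 markers) in Ctrl replicate 2 and 2908 CPM (4 of 5) in HLU replicate 2, while markers of fat cells stood at 0 in all 4 libraries, Adipoq among them. The 6 inflammatory markers summed to 20984 and 8789 CPM in the same sums. The part of these in the result was not tested.

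In inflammatory monocytes both scavenger receptors, the cholesterol pump and the droplet coat were higher than in classical monocytes, and the lipase and the fatty acid carrier Fabp4 were lower. These 6 of the 10 members differed by edgeR's test over 8344 genes and 8 sums. Higher in inflammatory monocytes were 4, where 6.27% of all genes were higher: Cd36 (log2 fold change 2.22 ± 0.18 SE, adjusted p = 3.86e-04), Abca1 (1.96 ± 0.19, adjusted p = 0.00112), Msr1 (1.41 ± 0.22, adjusted p = 0.00490) and Plin2 (0.53 ± 0.13, adjusted p = 0.0252). Cd36 rose within every library, from 78.7 to 307, from 48.3 to 372, from 49.3 to 184 and from 8.25 to 32.7 CPM. Abca1 rose from 40.2 to 94.6, from 33.6 to 131, from 18.4 to 105 and from 16.9 to 62.4 CPM, and all 4 inflammatory sums lay above all 4 classical sums. Lower were 2, where 7.83% of all genes were lower: Fabp4 (-1.63 ± 0.29, adjusted p = 0.00823) and Lpl (-1.57 ± 0.40, adjusted p = 0.0319). Lpl stood at 21.3, 52.9, 58.7 and 28.1 CPM in classical and at 0, 3.82, 25.2 and 13.7 CPM in inflammatory monocytes, where the Ctrl libraries held 0 and 3 UMIs. Fabp4 had 2, 10, 1 and 30 UMIs in inflammatory monocytes. Both reached the level of the filter in all 4 classical sums and in only 2 (Lpl) and 1 (Fabp4) of the 4 inflammatory sums, so they entered the test through the gate where they are high, and the count of lower members supports nothing. Gpnmb (0.72), Trem2 (-0.48), Apoe (0.11) and Fabp5 (0.06) did not pass. Leaving out Ctrl replicate 2 ended the calls of Fabp4, Lpl and Plin2 (3 members called, with 4.74% of all genes), leaving out HLU replicate 1 those of Lpl and Plin2, and leaving out Ctrl replicate 1 that of Plin2. Without the library block 0 members were called. Markers of other cells moved between the gates too. The 4 megakaryocyte markers summed to 40.9, 29.5, 48.2 and 16.2 CPM in classical and to 394, 295, 51.5 and 30.9 CPM in inflammatory monocytes. The 9 stromal markers summed to 3984, 2719, 5.10 and 29.0 against 1107, 806, 9.71 and 112 CPM, and the 9 neutrophil markers to 2473, 4686, 4070 and 9570 against 4212, 10580, 4565 and 6369 CPM. The part of these in the result was not tested.

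Monocyte-derived cells with Arg1 and Inhba were compared with classical monocytes in the same way, over 8296 genes. The single member called was Fabp4, as lower, where 0.229% of all genes were lower. It stood at 9.45, 43.2, 10.8 and 9.75 CPM in classical monocytes, and its UMIs in the Arg1 and Inhba gate numbered 1, 6, 0 and 0. Fabp4 reached the level of the filter in 4 classical sums and in 0 of this gate, so it entered the test through the gate where it is high, and neither a size nor a p is given for it. Gpnmb was lower in each library (137, 174, 140 and 109 CPM against 55.0, 43.3, 92.2 and 68.5) with an adjusted p of 0.0887 by edgeR, and Fabp5 (log2 fold change -1.14), Trem2 (-1.90) and Cd36 (1.24) also missed the threshold. With DESeq2 3 members were called (4.12% of all genes), without the filter on low counts 5 (3.23%), without putative doublets 4 (7.37%), with a stricter gate 4 (10.3%) and without HLU replicate 2, which has 10 cells here, 5 (8.9%). None was called when any other library was left out. The stricter gate left 1 cell of HLU replicate 2, so this library was missing from that fit too. Leaving out doublets likewise brought a library of this gate under 10 cells. These counts are thus not separate lines of support.

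**Figure D3:**
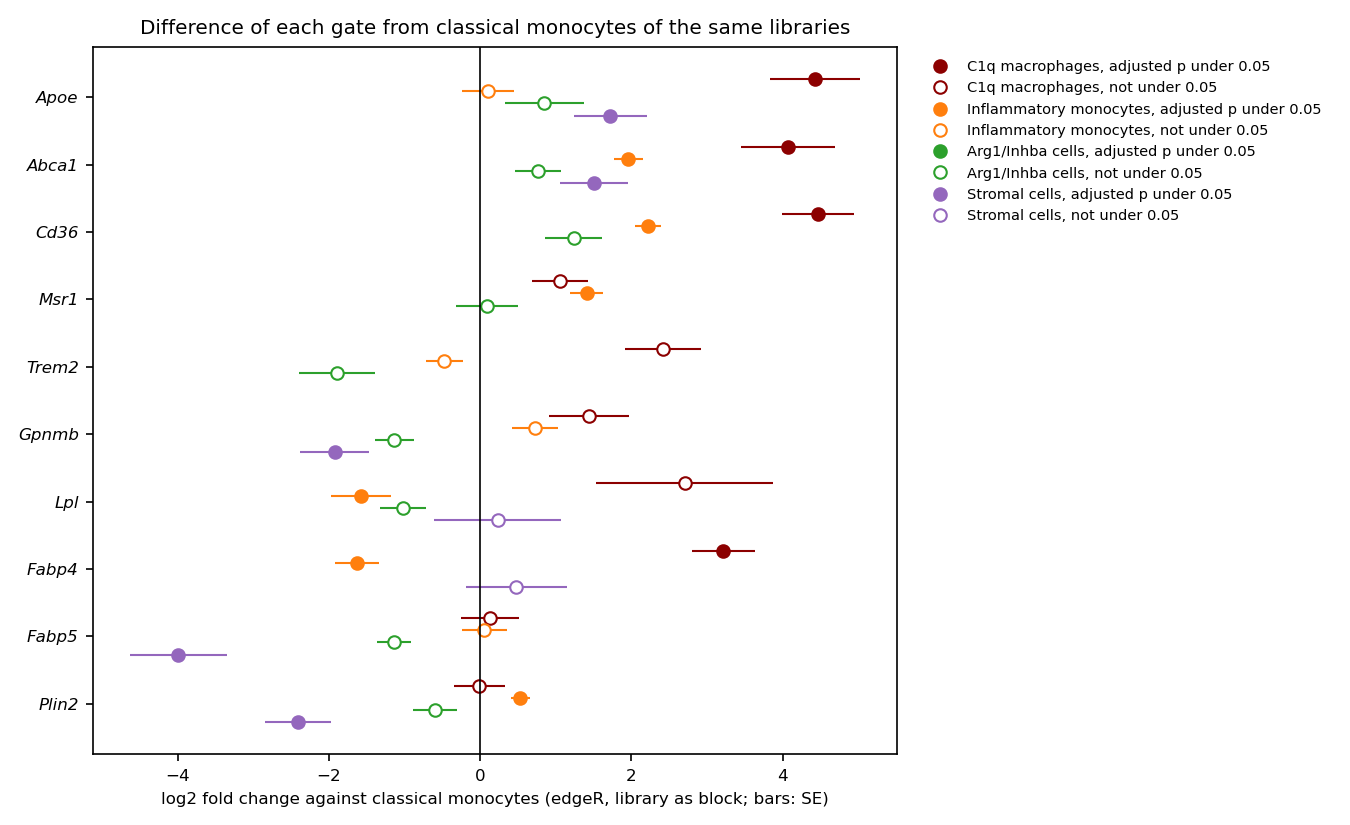
Log2 fold change by edgeR of each member (vertical axis) against classical monocytes for C1q macrophages, inflammatory monocytes, cells with Arg1 and Inhba, and stromal cells, with SE bars, filled at an adjusted p under 0.05 and open otherwise. Cd36 and Abca1 lie above 0 in both C1q macrophages and inflammatory monocytes, and Fabp5 and Plin2 lie below 0 in stromal cells. No point is drawn where at least 2 sums of a gate held 0 UMIs (Cd36, Msr1 and Trem2 in stromal cells, Fabp4 in cells with Arg1 and Inhba).

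Stromal cells, which include the precursors of bone-forming cells, served as cells outside the macrophage series. Against classical monocytes, 6 of the 10 members were lower, where 14.6% of the 10234 genes tested were lower, and 2 were higher, where 11.6% were. The receptors were close to missing: Msr1 had 2, 1, 0 and 0 UMIs, Cd36 11, 2, 0 and 0 and Trem2 4, 2, 0 and 0. These 3 of the 6 reached the level of the filter in 4 of 4 classical and 0 of 4 stromal sums, so they entered the test through the gate where they are high, and the count of 6 supports nothing. No size is given for them. Fabp5 (log2 fold change -3.99 ± 0.64), Plin2 (-2.41 ± 0.43) and Gpnmb (-1.92 ± 0.46) were also lower. Apoe was higher (1.72 ± 0.48, adjusted p = 0.0367 by edgeR), at 175, 164, 918 and 386 CPM against 59.8, 166, 158 and 39.9 CPM, nearly equal between the gates in Ctrl replicate 2. Abca1 (1.50 ± 0.45, adjusted p = 0.0468 by edgeR) stood at 67.1, 49.8, 217 and 63.5 CPM, above all 4 classical sums. With 1 more marker in the gates, HLU replicates 1 and 2 held 1 and 9 stromal cells, too few for a sum. That fit thus rested on the 2 Ctrl libraries alone. It gave log2 fold changes of 0.25 for Apoe and 0.55 for Abca1, and neither was called. Both calls also ended when HLU replicate 1 (1.50 and 0.92) or HLU replicate 2 (1.26 and 1.40) was left out, that of Apoe without Ctrl replicate 1 (1.86) and that of Abca1 without Ctrl replicate 2 (1.91). The call of Apoe also ended without the library block (1.72), as did that of Plin2 (-1.93), and the call of Abca1 ended without putative doublets (1.38). Leaving out Ctrl replicate 2 ended the call of Gpnmb (-1.76). Lpl (0.23) and Fabp4 (0.48) did not pass.

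The effect of unloading was tested between the Ctrl and HLU libraries within each gate, 2 mice against 2. In monocytes of all subsets together, 0 of the 10 members were called by edgeR or by DESeq2, where edgeR called 4.34% of the 10902 genes, 467 lower and 6 higher. The unadjusted p by edgeR was under 0.05 for 1695 of the 10902 genes and for 1 member, Abca1. Abca1 stood at 51.4 and 71.1 CPM in Ctrl and 37.2 and 35.6 CPM in HLU mice (log2 fold change -0.80 ± 0.27 SE, adjusted p = 0.237 by edgeR). In 3 of the 10 members (30%) the Ctrl and HLU libraries did not overlap, against 49.8% of all genes tested, namely Abca1, Cd36 and Msr1. Cd36 stood at 125 and 154 CPM in Ctrl and at 87.0 and 18.3 CPM in HLU mice (log2 fold change -1.50 ± 0.69 SE, adjusted p = 0.398 by edgeR). Msr1 stood at 70.0 and 109 CPM in Ctrl and at 124 and 309 CPM in HLU mice (1.24 ± 0.53, adjusted p = 0.355 by edgeR).

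HLU replicate 2 held the extreme value of both receptors, low for Cd36 and high for Msr1. Without it the log2 fold change was -0.77 for Cd36 (adjusted p = 0.0166 by edgeR), 0.37 for Msr1 (adjusted p = 0.353) and -0.81 for Abca1 (adjusted p = 0.0229), and 3 members were called, with 15.1% of all genes. Without HLU replicate 1 they were -2.87, 1.84 and -0.73, and 7 members were called, with 44.3% of all genes. In these fits a lone HLU library is assumed to vary as the Ctrl libraries do. The other 7 members overlapped between groups: Apoe at 77.5 and 158 against 137 and 62.8 CPM, Fabp5 at 95 and 344 against 218 and 224 CPM, Plin2 at 968 and 1091 against 1368 and 686 CPM. In a simulation of this design on 10902 genes, edgeR recovered 21 of 200 genes changed by 2 on the log2 scale, with 4 false calls.

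Within the subsets the test called no member either. In classical monocytes 0 members were called by edgeR or DESeq2, where 2.07% of 9987 genes were called by edgeR. An unadjusted p under 0.05 by edgeR was found for 2 members and for 1183 of all genes. Abca1 stood at 40.2 and 33.6 against 18.4 and 16.9 CPM (log2 fold change -1.13 ± 0.33 SE, adjusted p = 0.225 by edgeR) and Msr1 at 47.2 and 63.1 against 88.7 and 260 CPM (1.61 ± 0.56, adjusted p = 0.323 by edgeR). These were the 2 of the 10 members whose groups did not overlap, against 45.4% of all genes tested. In inflammatory monocytes 9 members could be tested and 0 were called by edgeR or DESeq2, as were 0% of all 6948 genes, of which 204 had an unadjusted p under 0.05 by edgeR. Cd36 in these cells stood at 307 and 372 against 184 and 32.7 CPM. Lpl, the single member with an unadjusted p under 0.05 by edgeR, held 0 and 3 UMIs against 26 and 110 UMIs. Its means were 1.91 CPM in Ctrl and 19.5 CPM in HLU mice. Both Ctrl sums lay below the level of the filter on low counts. Lpl thus entered the test through the HLU libraries, where it is high, and this p supports nothing. In cells with Arg1 and Inhba 8 members could be tested, 0 were called by edgeR or DESeq2 and 0 had an unadjusted p under 0.05, where 0% of 6511 genes were called by edgeR and 388 had such a p.

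**Figure D4:**
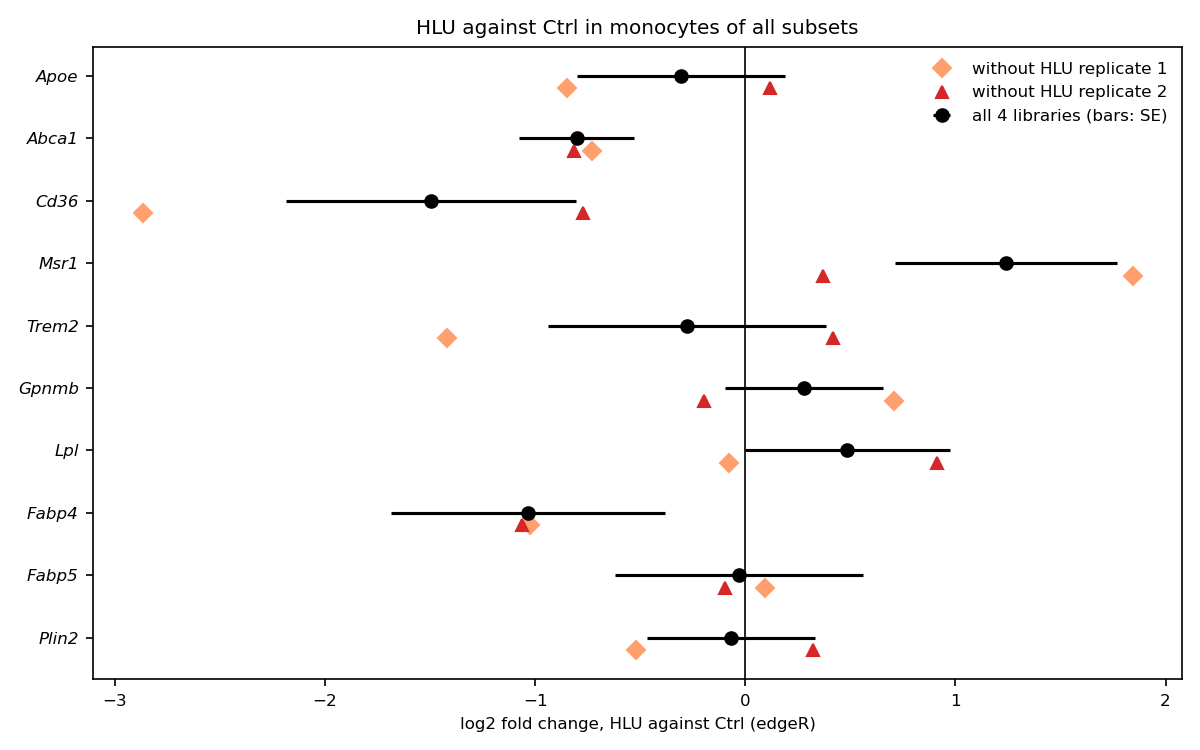
Log2 fold change by edgeR of each member between HLU and Ctrl in summed monocytes with all 4 libraries (circles, SE bars), without HLU replicate 1 (diamonds) and without HLU replicate 2 (triangles). Cd36 and Abca1 stay below 0 and Msr1 above 0 in all 3 fits, and for Cd36 the values run from -2.87 to -0.77.

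What the monocyte gate held besides monocytes changed with the group. Arg1 and Inhba cells made up 32.8% and 38.3% of gated monocytes in Ctrl mice and 11.4% and 0.719% in HLU mice, and inflammatory monocytes 21.8%, 21.4%, 26.3% and 48.4%. All 9 stromal markers together summed to 5090 and 5271 CPM in the Ctrl monocytes (8 and 9 with UMIs) and to 5.97 and 110 CPM in the HLU monocytes (5 and 8 with UMIs). The 8 chondrocyte markers summed to 1426 and 1096 against 6.77 and 37.6 CPM, and the 9 neutrophil markers to 2787 and 5392 against 4163 and 8295 CPM. Cd36, Msr1 and Trem2 had 13, 3 and 6 UMIs in all 1157 stromal cells together. The part of these cells and transcripts in the values of the members was not tested.

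In stromal cells 7 members could be tested between Ctrl and HLU mice and 0 were called by edgeR, where 0.0959% of 10423 genes were called, while DESeq2 called Lpl (adjusted p = 0.0164). By edgeR 2 of the 7 members and 1334 of the 10423 genes had an unadjusted p under 0.05. Lpl stood at 9.45 and 16.7 CPM in Ctrl and at 657 and 58.6 CPM in HLU mice (log2 fold change 4.36 ± 0.89 SE, adjusted p = 0.161). The 103 Lpl UMIs of HLU replicate 1 came from 7 of its 12 stromal cells, with 44 of them in 1 cell, and HLU replicate 2 held 12 UMIs in 20 cells. Apoe stood at 175 and 164 against 918 and 386 CPM (1.61 ± 0.43, adjusted p = 0.234 by edgeR), and the groups did not overlap, as in 48.4% of all genes tested. Without HLU replicate 1 the Lpl log2 fold change was 1.97, and without HLU replicate 2 it was 5.17. The gate itself differed, since its stromal markers summed to 34901 and 35174 CPM in Ctrl and to 17921 and 18802 CPM in HLU mice, its osteoblast markers to 587 and 345 against 2513 and 2300 CPM, and its neutrophil markers to 2150 and 3104 against 7672 and 14978 CPM. The part of these cells in the result was not tested.

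The difference between the HLU effect in monocytes and that in stromal cells was tested as an interaction over 10951 genes. Lpl was the single member called (-3.48 ± 0.58 SE on the log2 scale, adjusted p = 0.0219 by edgeR), where 3.21% of all genes were called in this direction. In monocytes Lpl stood at 16.4 and 31.3 against 48.8 and 22.0 CPM, with overlapping groups. The call ended without HLU replicate 1 (-1.97, adjusted p = 0.0703 by edgeR). Apoe had an interaction of -1.80 ± 0.42 SE (adjusted p = 0.0640 by edgeR). Cd36, Msr1 and Trem2 had 0 UMIs in both HLU stromal sums, so that no size is given for them.

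The effect of unloading in C1q macrophages could not be tested, because 1 library of each group held under 10 cells. Side by side, Cd36 was at 3190 and 1803 CPM in the 7 and 14 cells of the Ctrl mice and at 856 and 122 CPM in the 1 and 54 cells of the HLU mice. Msr1 stood at 52.8 and 171 against 0 and 495 CPM, and Abca1 at 296 and 254 against 214 and 666 CPM. The 0 of Msr1 is 0 UMIs in the 1 cell of HLU replicate 1. Osteoclast-like cells were likewise too few to test, and their Apoe stood at 51.2, 541, 1136 and 514 CPM.

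Across 57 sums of gate and library with at least 20 cells, the members fell into patterns of their own. The closest pairs among the members were Cd36 and Msr1 (Pearson's r = 0.723), Msr1 and Trem2 (0.699) and Cd36 and Trem2 (0.621), all of log2(CPM + 1) levels, and the least alike were Apoe and Plin2 (-0.25). These correlations are descriptions, since sums from 1 library share its depth and its free RNA. Among 7985 other genes, the most alike to Msr1 were Ms4a6d (0.923) and Clec4a1 (0.894), and Clec4a1 was also second for Cd36 (0.657) after Cln8 (0.677). Gpnmb was most like Psap (0.822), the precursor of lysosomal saposins, and Ctsb (0.802), a lysosomal protease. Plin2 was most like Taldo1 (0.866) and Prdx6 (0.861), Abca1 like Myof (0.770), and Trem2 like Serpinb8 (0.734) and Ctsa (0.692). Fabp5 went with Clec4a3 (0.731) and Pira2 (0.722), Fabp4 with Cd151 (0.715) and Pdgfa (0.703), Apoe with Runx1 (0.701) and S100a10 (0.695), and Lpl with Myof (0.632) and Plxna1 (0.626).

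Another 58 genes of lipid uptake, lipolysis, transport, storage and lysosomes were followed beside the members. Of these 58, 3 (Atp6v0d2, Cidec and Plin1) are also gate markers. In C1q macrophages 3 of the 44 tested were higher than in classical monocytes by edgeR, where 0.863% of all genes were, and 0 lower: Mitf (log2 fold change 2.35 ± 0.40 SE, adjusted p = 0.0325), a transcription factor of lysosome genes, Acsl1 (2.29 ± 0.37, adjusted p = 0.0276), which activates fatty acids, and Cxcl16 (2.05 ± 0.37, adjusted p = 0.0388), a chemokine that also acts as a scavenger receptor. In inflammatory monocytes 11 of 43 were higher and 4 lower, where 6.27% and 7.83% of all genes were, with Hilpda (1.04), an inhibitor of droplet lipolysis, Cxcl16 (0.89) and Mitf (0.89) among those higher. Angptl4 (-1.69), an inhibitor of Lpl, the desaturase gene Scd2 (-1.08) and Lipe (-0.89), hormone-sensitive lipase, were among those lower. Lipe had a mean of 5.44 CPM in inflammatory monocytes, below the 6.18 CPM of the filter on low counts. Its entry into the test thus leaned on classical monocytes, where it is high, and the count of lower genes supports nothing. In cells with Arg1 and Inhba 0 of 42 were called by edgeR, with 11 at an unadjusted p under 0.05. Of all 8296 genes tested there, 35 were called and 1518 had such a p.

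In stromal cells 6 of 45 were higher than in classical monocytes and 15 lower by edgeR, where 11.6% and 14.6% of all genes were, so the share higher was near that of all genes. Syk (log2 fold change -4.05) and Tyrobp (-3.77), the signalling partners of Trem2, were lower, as was the scavenger receptor gene Stab1 at a mean of 3.29 against 27.8 CPM. The stromal mean of Stab1 lay below the 3.64 CPM of the filter on low counts. Its entry into the test thus leaned on classical monocytes, where it is high, and the count of lower genes supports nothing. Scd1 (4.25), Angptl4 (3.78) and Cd63 (2.22) were higher in stromal cells. Between HLU and Ctrl monocytes 3 of 49 were lower and 0 higher by edgeR, near the 4.28% of all genes that were lower. They were Mgll (-3.86, adjusted p = 0.0190), monoglyceride lipase, Vldlr (-3.81, adjusted p = 0.0171), a lipoprotein receptor, and Cd63 (-1.58, adjusted p = 0.0456), a tetraspanin of lysosomes. Mgll stood at a mean of 14.9 CPM in Ctrl and 0.985 CPM in HLU monocytes, and Vldlr at 27.7 and 1.94 CPM. Mgll lay below the level of the filter on low counts in both HLU sums, and the HLU mean of Vldlr lay below it too. Both thus entered the test through the Ctrl libraries, where they are high, and the count of lower genes supports nothing. These 3 genes moved with the summed stromal and chondrocyte markers given above, whose part was not tested. In classical monocytes alone, Mgll (-4.26) and Vldlr (-3.94) were the 2 of 48 called by edgeR, both lower in HLU mice, as were 2.03% of all genes. With HLU means of 0.80 and 1.18 CPM, both lay below the level of the filter in the HLU sums. They too entered the test through the Ctrl libraries, where they are high, so these calls support nothing. In stromal cells Scd1, a desaturase that makes monounsaturated fatty acids, was the single gene of the 46 tested that differed, higher at a mean of 399.6 CPM in HLU against 30.6 CPM in Ctrl mice (3.40 ± 0.33 SE, adjusted p = 0.0350 by edgeR), where 0.0768% of all genes were higher. In the interaction Scd1 (-4.78), Dgat1 (-2.75), which makes triglycerides, and Angptl4 (-2.54) were the 3 genes of the list called by edgeR, all with a lower HLU effect in monocytes than in stromal cells, where 3.21% of all genes were called in this direction. This interaction and the Scd1 difference rest on HLU stromal sums of 12 and 20 cells. Osteoblast and neutrophil markers were higher in these sums than in the Ctrl sums, as given above, and their part was not tested.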

How the data were processed

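Bone tissue of 2 Ctrl and 2 HLU mice was profiled in droplets with 10x Genomics chemistry (3′, version 3.1). UMI counts were made by the authors per gene and barcode with Cell Ranger 6.0.0 on mm10 (reference 3.0.0) and deposited as raw counts, without normalization. The study's own clustering used Seurat 4.1.0. Barcodes with 1000 to 40000 UMIs and at most 10% mitochondrial UMIs were kept. A marker counted as raised in a cell at 10% of the mean of the top 1% of cells. Gates needed 2 or 3 raised markers and few of other types, and their thresholds were set with the data in view. The 3 genes of the gate with Creg1, Pdcd1lg2 and Gclm were chosen after their values were seen. The members, the related list, the markers and the tests were chosen with earlier results of these data known. Named genes were all members, the 2 genes most correlated with each, and up to 3 related genes called per direction.

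UMIs were summed per gate and library (at least 10 cells) and tested with edgeR 4.0.16 (TMM factors, its own filter on low counts, quasi-likelihood, adjusted p under 0.05 by Benjamini-Hochberg over all genes tested), with limma 3.58.1 and R 4.3.3. Libraries were the replicates, whereas the study tested over cells. A permutation of 2 against 2 libraries cannot go below p = 0.333 and was not used. Gates of the same libraries were compared with the library as a block. The labels do not say whether same-numbered Ctrl and HLU libraries were handled together. Deviations of same-numbered libraries correlated at -0.04 over 7492 genes, a single value that cannot settle this. Intervals are 95% exact Poisson intervals and, with limits from 3 counts, cover counting error only. Alternatives were DESeq2 1.42.0, no filter, no putative doublets (Scrublet in scanpy 1.11.5, 0.8% per 1000 barcodes; kept otherwise), cells with at most 0.2% haemoglobin UMIs as in the study's methods, 1 more marker per gate, no library block, the replicate number as a block, and each library left out. Simulated sums tested the fit: for stromal against classical sums, 140 of 200 genes changed by 2 (log2) were recovered with 14 false calls among 10234 genes. Python 3.11.15 with numpy 2.4.6, scipy 1.17.1, pandas 2.3.3 and matplotlib 3.10.9 did the rest. Positions are from GENCODE M21. Comparisons of C1q macrophages between groups and of osteoclast-like with classical monocytes could not be fitted. One gene that the naming rule selects is not reported here.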

Additional observations from a re-analysis of the deposited data

Results flagged for a closer look

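The HLU effect on Lpl differed between monocytes and stromal cells by -3.48 ± 0.58 (log2, SE; adjusted p = 0.0219 by edgeR's interaction test), the single member whose effect differed between these gates. Leaving out HLU replicate 1, which holds 12 stromal cells, gave -1.97 (adjusted p = 0.0703 by edgeR), and other alternatives that could be fitted gave -4.17 to -3.20 on the log2 scale.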

How the results depend on the processing

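Members called (0 in the main test) between HLU and Ctrl were 2 without the filter on low counts in monocytes, 1 in classical and 2 in inflammatory monocytes, and in stromal cells 4 without the filter and 1 by DESeq2. With a library left out they numbered 0 to 7 in monocytes, 0 to 5 in classical monocytes, 0 to 4 in inflammatory monocytes, 0 to 2 in cells with Arg1 and Inhba and 0 to 3 in stromal cells, all calls coming with an HLU library left out. Without the library block 0 members were called for C1q macrophages (4 in the main test), inflammatory monocytes (6) and cells with Arg1 and Inhba (1). The last comparison gave 3 by DESeq2, 5 without the filter, 4 without putative doublets and 4 with a stricter gate. The stricter gate left 1 cell of HLU replicate 2 there, so this library was not in that fit. With a library left out the same comparison gave 0 to 5, and inflammatory monocytes gave 3 to 6. The interaction gave 2 by DESeq2, 4 without the filter and 0 to 2 with a library left out. With the replicate number as a block 0 members were called between HLU and Ctrl in any of the 5 gates tested, and 404 genes in monocytes (473 without it). Calls over all genes moved widely as well. Under the alternatives other than leaving a library out they ranged from 41 to 1651 in monocytes and from 1 to 1101 in classical monocytes. The ranges were 0 to 147 in inflammatory monocytes, 0 to 613 in stromal cells and 371 to 816 for the interaction. The counts of members are thus no result about the members. The cause of these changes was not tested.

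Some HLU differences in monocytes turned sign, on the log2 scale: Gpnmb (-0.019) and Fabp4 (0.69) with a stricter gate, and Fabp5 without the filter (0.027), without doublets (0.042), with little haemoglobin (0.0045) and with the replicate block (0.23). With a library left out these differences ran from -0.85 to 0.27 for Apoe, -1.42 to 0.42 for Trem2, -0.20 to 0.71 for Gpnmb, -0.079 to 1.01 for Lpl, -1.65 to 0.34 for Fabp4, -0.63 to 1.15 for Fabp5 and -0.52 to 0.32 for Plin2. In C1q macrophages Fabp5 turned to -0.026 without the library block and Plin2 to 0.031 with little haemoglobin. In inflammatory monocytes Apoe turned to -0.13 without the block and ran from -0.37 to 0.56 with a library left out, and Fabp5 turned to -0.12 with a stricter gate and -0.043 without the block and ran from -0.18 to 0.47. Of the 10 members, 8 differed between stromal cells and classical monocytes in the main test and 6 to 8 under every alternative. In the main test 11.6% of all genes tested were higher in stromal cells and 14.6% lower. The 8 include Cd36, Msr1 and Trem2, which entered the test through classical monocytes, so these counts support nothing.

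Counts over all genes ranged over the alternatives from 19 to 5016 in HLU monocytes (473 in the main test), 1 to 2957 in classical (207), 0 to 1336 in inflammatory monocytes (0), 0 to 969 in cells with Arg1 and Inhba (0) and 0 to 613 in stromal cells (10). Between gates they ranged from 0 to 345 for C1q macrophages (83), 9 to 1883 for inflammatory monocytes (1176), 0 to 749 for cells with Arg1 and Inhba (35) and 1277 to 4548 for stromal cells (2687), and from 268 to 816 for the interaction (362). A stricter gate gave no value for C1q macrophages, for the interaction and for HLU effects in stromal cells and cells with Arg1 and Inhba, nor did leaving out doublets for the last, or Ctrl replicate 2 or HLU replicate 2 for C1q macrophages. Depth limits what the small gates can show: HLU stromal sums hold 12 and 20 cells, and the C1q test rests on 14 and 54.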

Other observations

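Cells with Creg1, Pdcd1lg2 and Gclm, a gate chosen after its values were seen, had 3558, 3845, 3954 and 546 CPM of Plin2 in Ctrl replicates 1 and 2 and HLU replicates 1 and 2, the highest mean of any gate (2976 ± 1629, SD, n = 4). Their Gpnmb stood at 217, 77.2, 321 and 37.6 CPM, while Msr1, Trem2 and Lpl had 0 UMIs in all 4 libraries, and no cell held more than 4 of the 10 members. HLU replicate 2 was the lowest library for both Plin2 and Gpnmb there.

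Basophils and mast cells, which ranked after C1q macrophages for Apoe, had 1063, 387, 416 and 481 CPM, with Gpnmb and Lpl at 0 UMIs in all 4 libraries. B cells stood at 103, 181, 87.7 and 581 CPM of Apoe, with HLU replicate 2 above the other libraries.

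Of the 95 cells in the megakaryocyte gate, 12.6% held UMIs of at least 5 members, and the most in a cell was 10. In T and NK cells 65 Lpl UMIs lay in 0.557% of the 539 cells.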
